A study of Mus musculus with 38 samples.

Results

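The olfactory receptor cluster of mouse chromosome 2 was taken as mm9 chr2:85400000-89900000, a region of 4.5 Mb, and its members were all histone-mark peaks that overlap it. These were 82 of the 384017 peaks in 12 deposited lists, against 30222 peaks on the rest of chromosome 2. The lists come from chromatin immunoprecipitation followed by sequencing (ChIP-seq) on whole liver of CD-1 mice aged 8 weeks, an outbred stock, with 6 histone H3 marks mapped in males and in females. Per the labels, H3K4me1 and H3K4me3 had 4 libraries from males and 3 from females, H3K27ac and H3K27me3 had 3 from each sex, and H3K36me3 and H3K9me3 had 2 from each sex. The groups carry no treatment or engineered allele. All libraries of a mark and sex share 1 identical list, taken here as pooled, so each mark has 1 value per sex, there is no spread between animals, and no test between the sexes could be run. Intervals given below are exact 95% intervals (Poisson for counts, Clopper-Pearson for shares) and cover counting error only.

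Olfactory receptors are G protein-coupled receptors that bind odorants, and each sensory neuron of the nose expresses one receptor gene out of this very large family. The genes lie in tandem clusters. In the sensory neurons, receptor clusters are known to be packed into heterochromatin marked by H3K9me3, from which the chosen gene escapes, and the family is silent or nearly so in most other tissues. H3K4me3 lies at active promoters, H3K4me1 and H3K27ac at enhancers and promoters, and H3K36me3 along transcribed gene bodies. H3K27me3 is the Polycomb mark of silent genes, and H3K9me3 is the mark of constitutive heterochromatin, which also covers repeats.

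The gene content of the region matched its name. Gene starts were placed in mm9 by exact matches between reads of an IgG control library and RefSeq promoter windows, because no mm9 annotation was used. This placed 133 starts in the cluster, of which 131 belong to olfactory receptors, 44 on the plus strand and 87 on the minus strand. The other 2 belong to Pramel7 (start at 87332576) and Pramel6 (87346723), members of the PRAME-like family. The first placed start is Olfr998 at 85430668 and the last is Olfr140 at 89892480. Between these 2 genes RefSeq lists 300 genes, of which 206 are protein-coding olfactory receptors, 63 are receptor pseudogenes, 28 are other pseudogenes, 2 are other protein-coding genes and 1 is an RNA gene. The tissue label was checked in the same way. Of 7 hepatocyte genes, 5 could be placed (Alb, Apoa1, Apob, Fgb and Tat), and the promoter windows of all 5 overlapped H3K4me1, H3K4me3 and H3K27ac peaks in males and in females. Of 7 olfactory sensory neuron genes, 2 could be placed. The window of Adcy3, the adenylyl cyclase of odorant signalling, overlapped no peak of any list. The window of Lhx2, a homeodomain factor that binds receptor promoters in the nose, overlapped H3K4me1, H3K4me3 and H3K27me3 but not H3K27ac in either sex.

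The promoter windows of 2 receptors are shown because they were the only placed receptor windows that overlapped peaks of the same mark in both sexes: Olfr1160 overlapped H3K27ac and H3K4me1 peaks, and Olfr1176 overlapped H3K27me3 islands. Each window holds 300 bases, 250 before the RefSeq start in lower case and 50 from the start on in capitals. Both are written in the direction of transcription. In both, the capitals begin with ATG, the letters of a start codon. The RefSeq start of these receptors may thus be that of the coding sequence and not that of transcription. The sequences are RefSeq's, of build GRCm38.p6, and their places in mm9 come from matching IgG reads: chr2:87846885-87847184 on the minus strand for Olfr1160 and chr2:88179475-88179774 on the plus strand for Olfr1176.
Olfr1160: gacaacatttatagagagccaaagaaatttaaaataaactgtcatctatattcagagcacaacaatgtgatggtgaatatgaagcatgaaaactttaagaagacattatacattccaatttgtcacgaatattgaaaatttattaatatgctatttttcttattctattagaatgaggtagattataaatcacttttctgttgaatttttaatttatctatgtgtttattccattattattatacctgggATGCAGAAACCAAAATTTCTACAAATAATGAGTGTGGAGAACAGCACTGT
Olfr1176: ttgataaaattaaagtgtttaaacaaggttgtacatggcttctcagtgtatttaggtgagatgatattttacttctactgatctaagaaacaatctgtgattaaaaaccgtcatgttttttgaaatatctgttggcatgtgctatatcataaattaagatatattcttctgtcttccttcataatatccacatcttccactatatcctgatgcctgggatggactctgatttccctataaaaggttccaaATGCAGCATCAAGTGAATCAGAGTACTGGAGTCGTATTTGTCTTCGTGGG
Both windows are poor in G and C, with 27.3% in Olfr1160 and 34.7% in Olfr1176. Olfr1160 holds 1 CG dinucleotide and Olfr1176 holds 3. The letters TATAAA occur at 2 places in Olfr1160 and at 1 in Olfr1176, counted on both strands. TAATTA, which holds the core bound by homeodomain factors, and CCCNNGGG, a form of the site of the olfactory and B-cell factors of the Ebf family, occur in neither window.

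Over the 174 RefSeq promoter windows of receptor genes in the cluster, the median G and C content was 31.7% (range 18.3% to 43.3%), against 54% over the 2602 windows of other genes on chromosome 2. The median number of CG dinucleotides was 1 in the receptor windows and 8 in the other windows, and 61 receptor windows held none. TATAAA was found in 57.5% of the receptor windows of the cluster (95% interval 49.8% to 64.9%), against 11.2% of the other windows of chromosome 2. TAATTA was found in 24.7% of them (18.5% to 31.8%), against 5.04% of the other windows. CCCNNGGG went the other way, with 2.30% of the receptor windows (0.630% to 5.78%) and 14.8% of the other windows. The motifs were chosen after the windows had been read, both strands were searched, and matches of different motifs may overlap. The lower G and C content of the receptor windows moves with all 3 comparisons, and its part was not tested. Receptor windows may lie at coding starts, as the printed ones may, and not at starts of transcription. How far this sets them apart from windows of other genes, here and in the counts under peaks below, was not tested.

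Of the 6 marks, 5 were scarce in the cluster in both sexes, and H3K9me3 was scarce in males only. The covered share, which is the percentage of bases under at least 1 peak of a list, was 0.109% for H3K4me1 in the cluster in males, against 6.36% on the rest of chromosome 2. In females it was 0.0912% in the cluster and 7.57% on the rest. The H3K27ac share of the cluster was 0.176%, against 5.25% on the rest, in males, and 0.125%, against 4.70%, in females. The 2 enhancer marks thus covered the cluster 29.9 to 83.0 times less than the rest of its chromosome. H3K4me3 covered 0.0186% of the cluster and 1.47% of the rest in males, and 0.0520% of the cluster and 1.45% of the rest in females. H3K36me3 covered 0.0978% of the cluster and 14.8% of the rest in males. In females no H3K36me3 island lay in the cluster, against 15.3% of the rest of the chromosome covered. H3K27me3, a mark of silent genes, was low here too, at 1.93% of the cluster and 28.8% of the rest in males, and 0.711% of the cluster and 31.0% of the rest in females. The H3K27me3 shares of the cluster depend on its borders: moved 100 kb outwards they were 4.09% in males and 2.60% in females, and moved 100 kb inwards 1.67% in males and 0.298% in females.

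The rest of chromosome 2 was cut into 38 windows as long as the cluster to see how often such low shares occur. For H3K27me3 all 38 windows lay above the cluster in both sexes, and the lowest window had 8.08% in males and 6.43% in females. For H3K4me3 all 38 lay above it in males and 37 in females, and for H3K4me1 and H3K27ac 37 lay above it in each sex. For H3K36me3, 37 lay above it in each sex and the other 1 had the same share. H3K9me3 split by sex. In males it covered 1.55% of the cluster and 7.75% of the rest, and 36 of the 38 windows were higher. In females it covered 10.9% of the cluster and 10.1% of the rest, and 12 windows were higher while 26 were lower. H3K9me3 coverage of the cluster was 0.142 of the female value in males, whereas on the rest of the chromosome it was 0.768 of the female value. Single windows varied widely and in both directions around that value. The window starting 45 Mb before the cluster had 0.898% in males and 7.71% in females. The one starting 58.5 Mb before it had 14.4% in males and 4.18% in females.

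**Figure D1:**
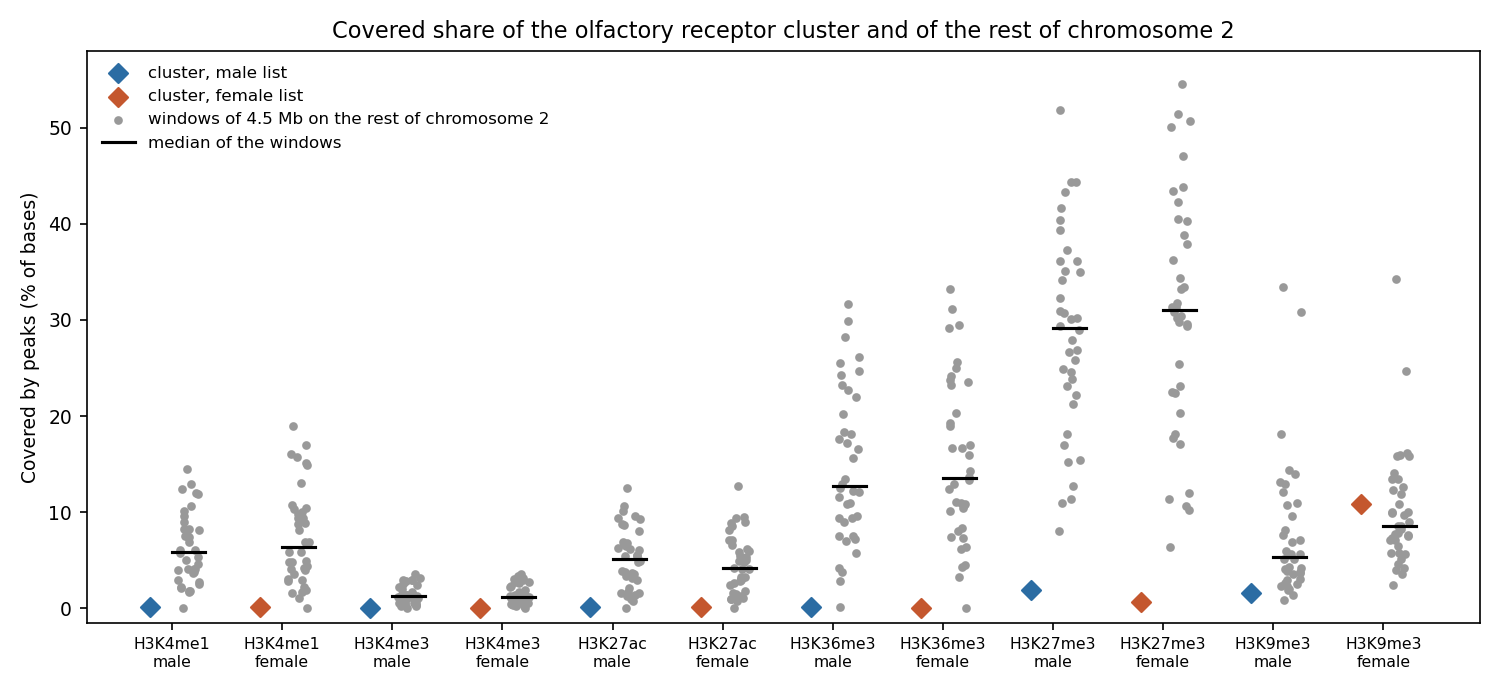
Percentage of bases covered by peaks (y axis) for each mark and sex (x axis), with the cluster as a diamond (blue for male lists, orange for female lists), the 38 windows of 4.5 Mb on the rest of chromosome 2 as grey points and their median as a line. The cluster sits at or near the bottom of the windows in every list except female H3K9me3, where its 10.9% lies above 26 windows.

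Over all 12 lists, 14.25% of the cluster and 62.7% of the rest of the chromosome lay under some peak. For the 4 marks of active chromatin (H3K4me1, H3K4me3, H3K27ac and H3K36me3) the union over both sexes was 0.415% of the cluster, or 18.7 kb, and 23.1% of the rest. The last 1994 kb of the cluster (chr2:87905800-89899999) held no peak of an active mark in either sex. The scarcity did not end at the borders. On the left the nearest outer peak of an active mark was a female H3K27ac peak at chr2:85092022-85094190, 305.8 kb from the border. On the right it was a female H3K4me1 peak at chr2:90281856-90282329, 381.9 kb from the border, so the stretch without active marks at that end reached 2376 kb. A longer one occurs elsewhere on the chromosome, with 2466 kb between 94839932 and 97306244. H3K27me3 covered 36.2% in males and 44.6% in females of the 500 kb left of the cluster, and 11.8% in males and 6.72% in females of the 500 kb to its right. H3K9me3 covered 0% in males and 10.5% in females of the left flank, and 6% in males and 5.92% in females of the right flank. Of 32 neighbouring genes in a list, 15 could be placed, all of them over 500 kb outside the borders. Of their promoter windows, 10 or 11 overlapped each of H3K4me1, H3K4me3 and H3K27ac, among them those of Ssrp1, a histone chaperone subunit, and Nr1h3, the liver X receptor alpha.

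H3K27ac was found at 3 places in the cluster in both sexes, and at 1 more in males. The strongest was chr2:85908324-85911756 in males, with 494 tags and a fold of 24.4 over background, and chr2:85909110-85911614 in females, with 234 tags and a fold of 15.9. Tags are the reads in a peak, and folds, scores and ranks by score are the authors' own values, used here only within 1 list. The summits, at 85910270 in males and 85910271 in females, were 1 base apart. By score the peak stood at 17.4% of the male list and at 26.2% of the female list, counted from the best, so it was a strong site in liver by the standard of each list. In whole tissue, a site present in few cells and a site weak in all cells cannot be told apart. The nearest placed gene start is that of Olfr1036, 3.11 kb to the right of the male peak and 3.25 kb to the right of the female peak.

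This H3K27ac site had no H3K4 methylation peak in any list. The nearest H3K4me1 or H3K4me3 peak of either sex was 814 kb from the male peak and 815 kb from the female peak. Among H3K27ac peaks in the best 30% of their list, a limit chosen after this site was seen, 0 of 898 in males and 1 of 840 in females on the rest of chromosome 2 had no H3K4me1 or H3K4me3 peak overlapping them. Over all autosomes outside the cluster the counts were 6 of 12268 in males and 9 of 11490 in females. Without the limit, 260 of 3135 (8.29%) in males and 223 of 2922 (7.63%) in females on the rest of chromosome 2 had none. In the cluster, the weaker peaks at 85798596 in males and 85798418 in females were 704 kb from the nearest. The male peak at 87850148 was 1.24 kb from it. The density of IgG control reads at the site near Olfr1036 was 0.766 of that of the rest of chromosome 2 under the male peak and 0.727 under the female peak. These values rest on 13 and 9 reads of 1 library, and the part of control reads was not tested. In the authors' deposited table the log2 ratio of male over female was 0.41 in the male list and 0.36 in the female list, and the site was called in neither sex.

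The second H3K27ac site lay over the start of Olfr1160, the receptor whose window is printed above. It was chr2:87846645-87849424 in males, with 359 tags and a fold of 12.7, and chr2:87846887-87848938 in females, with 182 tags and a fold of 9.19. H3K4me1 lay on its upstream side, at chr2:87847026-87848826 in males with 177 tags and a fold of 11.1, and at chr2:87847182-87848907 in females with 142 tags and a fold of 3.65. The H3K4me1 peak began 92 bases upstream of the RefSeq start in males and 248 bases upstream in females, while the H3K27ac peaks of both sexes held the start. Of the 131 placed receptor promoter windows, only that of Olfr1160 overlapped either mark. On chromosome 2 outside the cluster, H3K27ac overlapped 50.7% of 1210 placed windows of other genes in males and 49.3% in females, and H3K4me1 overlapped 44.2% in males and 50.6% in females. The authors' deposited table gives log2 ratios of male over female of 0.29 and 0.31 for H3K27ac (male list, then female list) and of 0.87 and 0.88 for H3K4me1 at this site, and calls neither sex. A further H3K27ac peak at chr2:87850148-87851180, with 52 tags and a fold of 4.01, was listed in males only and ranked at 96.2% of its list. The remaining H3K27ac site, at chr2:85798596-85799253 in males with 33 tags and at chr2:85798418-85799495 in females with 53 tags, leaned to females, with log2 ratios of -0.63 and -0.64 in the authors' deposited table. It ranked at 93.8% of the male list and 75.7% of the female list, with the authors' false discovery rate (FDR) at 67.9% in males and 7.96% in females. None of the 4 male and 3 female H3K27ac members was called sex-biased, where a call needs an absolute log2 of at least 1 and a p below 0.001. Over the whole lists 2.6% of male-list peaks and 3.63% of female-list peaks carried a call.

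Apart from Olfr1160, H3K4me1 had 2 shared sites and 1 male site, all in the middle of the cluster. The site between the placed starts of Pramel6, 13.9 kb from the male peak, and Olfr153, 10.4 kb from it, lay at chr2:87360585-87361751 in males, with 60 tags and a fold of 4.06, and at chr2:87360534-87362027 in females, with 172 tags and a fold of 6.13. The site between Olfr1148 and Olfr1152, at chr2:87686581-87687720 in males, had 69 tags and a fold of 5.36, and at chr2:87686626-87687508 in females it had 59 tags and a fold of 4.21. By score the site between Pramel6 and Olfr153 stood at 92.6% of the male list (FDR 38.9%) and 37.6% of the female list (FDR 0.77%). The site between Olfr1148 and Olfr1152 stood at 65.0% in males (FDR 3.15%) and 82.6% in females (FDR 38.7%). These sites leaned opposite ways in the authors' deposited table, with log2 ratios of -0.78 and -0.76 at the site between Pramel6 and Olfr153 and of 0.73 and 0.70 at the other, male list first, and no call at either. The male site at chr2:87828629-87829425, with 43 tags, a fold of 6.07 and an FDR of 10.2%, ranked at 76.8% of its list. This site is 17.5 kb from the start of Olfr1160. It was the 1 of 4 male members that the authors' deposited table calls male, with a log2 ratio of 1.25 and a p-value of 2.44e-05, where 8.71% of the male list was called in either direction and 8.21% was called male. Of the 3 female members 0 were called, where 5.13% of the female list was.

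H3K4me3 peaks in the cluster were weak and were at different places in the sexes. The male list had 1, at chr2:86917440-86918278 with 36 tags. The female list had 4, at chr2:86835845-86836369, chr2:87007034-87007554, chr2:87503056-87503678 and chr2:87904573-87905245, with 19 to 30 tags. Their ranks by score ran between 89.9% and 99.7% of their lists, with FDRs of 47% to 100%, near the authors' threshold. None overlapped a peak of the other sex. On the rest of the chromosome 8.40% of male and 17.5% of female H3K4me3 peaks lacked such a partner. These shares are over peaks of every rank and were not matched to the members' low ranks. None of the 131 placed receptor windows overlapped an H3K4me3 peak in either sex, which allows a share of up to 2.29% by a limit of 3 counts (exact upper bound 2.78%), against 49.1% of the other windows on chromosome 2 in males and 49.4% in females. No member was called in the authors' deposited table, where 4.96% of the male list and 2.59% of the female list were.

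**Figure D2:**
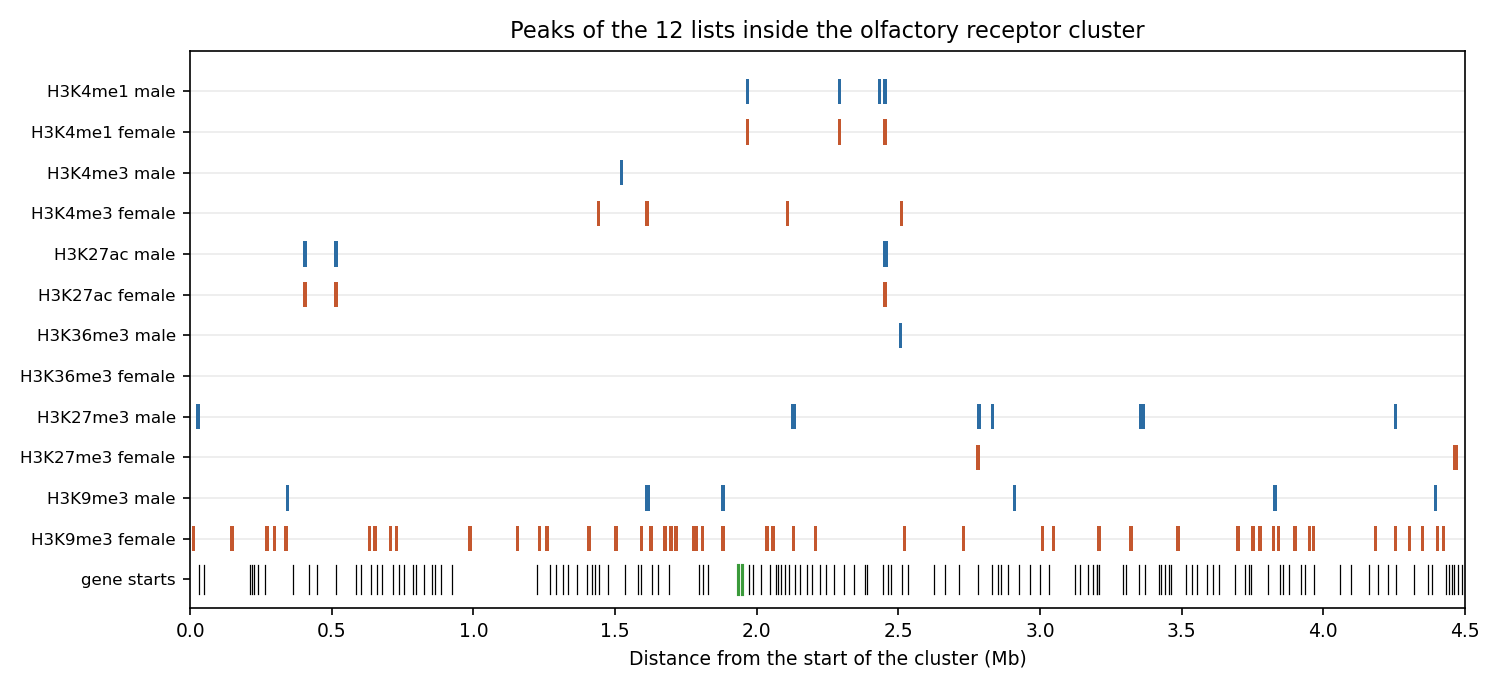
Peaks of the 12 lists along the cluster (x axis, Mb from its start; 1 row per mark and sex, blue for male and orange for female), each drawn at a minimum width of 12 kb, with placed gene starts below as ticks (black for olfactory receptors, green for Pramel7 and Pramel6). Active marks occupy few places, with 1994 kb on the right free of them, while the 6 male H3K9me3 islands are scattered and the 48 female ones spread along the whole cluster.

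H3K36me3, H3K27me3 and H3K9me3 were called as islands, which are runs of enriched windows, with reads and control reads per island. The only H3K36me3 island lay at chr2:87901400-87905799 in males, with 147 reads and 54 control reads and a fold of 1.72. It overlapped the female H3K4me3 peak at chr2:87904573-87905245, and lay 5.77 kb downstream of the placed start of Olfr1163. The density of IgG reads there was 1.93 times that of the rest of chromosome 2, and its part in the island was not tested. The authors' deposited table gives a log2 ratio of 0.54 and no call, where 0.592% of the male list was called.

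H3K27me3 islands were few and shallow. The male list had 6 and the female list 2, with folds of 1.21 to 1.45 in males and of 1.29 and 1.34 in females, and all of them ranked in the lower 50% of their lists. The island over Olfr1176 was the only shared one. It ran over chr2:88178400-88187999 in males, with 303 reads, 116 control reads and a fold of 1.35, and over chr2:88176000-88188799 in females, with 385 reads, 148 control reads and a fold of 1.34. IgG density under it was 1.90 times that of the rest of chromosome 2 in both lists. Over the 6 male islands it was 1.20 to 1.90 times and over the 2 female islands 1.40 and 1.90 times, so every H3K27me3 member stood on more control reads than the chromosome's mean, and what part this has was not tested.

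The other 5 male H3K27me3 islands had no female partner (83.3%, interval 35.9% to 99.6%), against 12.8% on the rest of the chromosome. The 12.8% is over islands of every rank and was not matched to the members' low ranks. The 5 islands were chr2:85420000-85434799 over Olfr998, chr2:87522800-87539999 over Olfr1136, chr2:88226400-88236799 over Olfr1178, chr2:88749600-88771199 over Olfr1209 and Olfr1211, and chr2:89648800-89661999 over Olfr1255. The female island without a male partner was chr2:89857200-89876399 over Olfr1264. Each H3K27me3 member thus held at least 1 receptor start. In males 7 of 131 placed starts lay under the mark (5.34%, interval 2.18% to 10.7%), where the islands covered 1.93% of the bases and held 2.51% of the distinct IgG reads. In females 2 of 131 did (1.53%, interval 0.185% to 5.41%), with 0.711% of the bases and 1.06% of the distinct IgG reads. Starts can be placed only where an IgG read falls, so the share of reads stands beside the share of bases. The intervals treat starts as independent, although Olfr1209 and Olfr1211 share 1 island. Over 16 other runs of receptor genes, described below, 16.1% of 355 starts lay under the mark in males, where 10.4% of the bases were covered. In females 11.8% did, where 7.49% were covered. Of 1210 placed windows of other genes on chromosome 2, 32.5% overlapped the mark in males and 35.5% in females. In the authors' deposited table all 6 male members had log2 ratios above 0, at 0.12 to 0.53 with a median of 0.30. The rest of chromosome 2 had a median of 0.06. Islands listed in males only are selected for ratios towards males. Those without a female partner had a median of 0.362 over the whole male list and of 0.325 among the members. The female members had -0.05 and 0.03. None was called in either list, where 0.808% of the male list and 0.0615% of the female list were.

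H3K9me3 covered less of the cluster in males than in females. The male list had 6 islands in the cluster (interval 2.20 to 13.1), or 1.33 per Mb, against 4.63 per Mb on the rest of the chromosome. The female list had 48 (35.4 to 63.6), or 10.7 per Mb, against 7.81 per Mb on the rest. Together the male islands covered 69.6 kb and the female islands 489.6 kb. The female islands were 3.6 to 21.2 kb wide with a median of 10.2 kb. They lay along the whole cluster, with 10, 13, 6 and 13 starting in its first 4 megabases and 6 in the last stretch. The median distance between neighbours was 48.4 kb and the longest was 305.6 kb, at chr2:87609600-87915199, the stretch that holds the Olfr1160 marks.

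The female islands were of ordinary strength for their list. Their folds ran between 1.40 and 5.14 with a median of 1.995, where the islands on the rest of chromosome 2 had a median of 2.03, and 23 of the 48 stood in the better-scoring 50% of the list. The best by reads over control reads was chr2:87202400-87208399, with 86 reads, 27 control reads and a fold of 5.14, in the gap between the placed starts of Olfr1120 and Olfr1121. The next was chr2:89346400-89350399, with 58 reads, 21 control reads and a fold of 4.46. Then came chr2:87069600-87082399 with a fold of 3.31, chr2:89219200-89231199 with a fold of 3.24 and chr2:85542000-85545599 with a fold of 3.17. The 3 widest were weaker: chr2:87171600-87192799 had a fold of 1.83, chr2:87427600-87444399 a fold of 1.52 and chr2:86894800-86910799 a fold of 1.70.

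Most male islands had a female partner, and most female islands had no male one. Of the male islands, 1 of 6 had no female partner (16.7%, interval 0.421% to 64.1%), against 39.5% on the rest of the chromosome. Of the female islands, 43 of 48 had no male partner (89.6%, interval 77.3% to 96.5%), against 62.6% (59.9% to 65.2%) on the rest. A list records only what passed the caller's threshold, so islands found in 1 sex only are selected for a ratio towards that sex. In the authors' deposited table, the log2 ratio of male over female lay below 0 at 47 of the 48 female islands, with a range of -1.14 to 0.43 and a median of -0.40. The rest of chromosome 2 had a median of -0.31 with 87.8% of islands below 0, and the whole female list had a median of -0.30. The cluster's median thus lay 0.10 below that of its list. Islands without a male partner had a median of -0.40 over the whole female list and of -0.42 among the members.

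Only 2 female islands were called female in the authors' deposited table: chr2:86044800-86057599, between Olfr1045 and Olfr1046, with a log2 ratio of -1.01 and a p-value of 2.71e-06, and chr2:89650000-89654799, next to Olfr1255, with -1.14 and a p-value of 0.000678. They are 4.17% of the members (interval 0.509% to 14.3%), where 2.3% of the whole female list was called in either direction and 2.24% was called female. The interval of the members' share holds both values. The island beside Olfr1255 lies inside a male H3K27me3 island. The male list was shorter, with 10875 islands, against 17626 in the female list. Cut to the length of the male list by score, the female list kept 31 members in the cluster, which covered 6.34% of it. Of these, 26 had no male partner, and the matching share on the rest of the chromosome is not given for the cut list.

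The 6 male H3K9me3 islands were chr2:85738000-85744799, chr2:87006400-87023199, chr2:87274000-87286799, chr2:88303600-88314799, chr2:89224000-89232799 and chr2:89790000-89803199. Their folds were 2.78, 1.57, 2.63, 1.61, 4.54 and 2.50 in that order, and the island at 88303600 was the only 1 without a female partner. The island at 89224000 stood out. It ranked at 160 of the 10875 islands of the male list, with 187 reads and 85 control reads, between the placed starts of Olfr1234 and Olfr1238. The female island at the same place, chr2:89219200-89231199, had 199 reads and 99 control reads. In the authors' deposited table the log2 ratio was 0.64 in the male list, with a p-value of 2.54e-05, and 0.43 in the female list, which makes it the 1 female island of 48 above 0, with no call in either list. None of the 6 male islands was called, where 3.45% of the male list was.

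**Figure D3:**
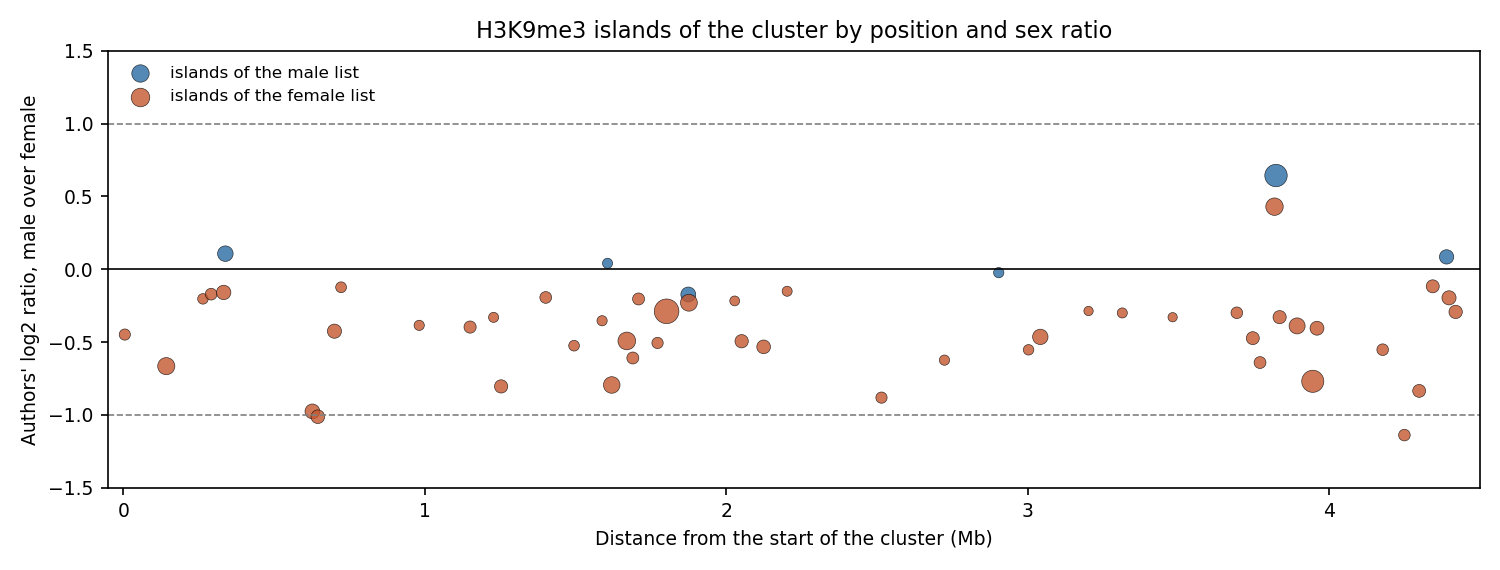
Authors' log2 ratio of male over female (y axis) of each H3K9me3 island of the cluster by distance from its start (x axis, Mb), blue for the 6 islands of the male list and orange for the 48 of the female list, with point area growing with the authors' fold and dashed lines at the call limits of -1 and 1. Of the female islands 47 lie below 0 and 2 lie beyond -1, while the pair of points at the upper right is the island at 89224000 in males and 89219200 in females.

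Few placed receptor starts lay under H3K9me3. In males 0 of the 131 did, which allows up to 2.29% by a limit of 3 counts (exact upper bound 2.78%), with 1.55% of the bases covered, so no difference from the bases was detectable. In females 3 of the 131 did, those of Olfr1111, Olfr1115 and Olfr1200 (2.29%, interval 0.475% to 6.55%). The female islands covered 10.9% of the bases and held 9.38% of the distinct IgG reads, and both shares are above that interval. On chromosome 2 outside the cluster, 6.36% of 1210 placed windows of other genes overlapped a female island (5.05% to 7.89%). There 10.1% of the bases were covered. Each window holds its start, so the share of starts there cannot be above that of windows. A share of starts below that of bases was thus not particular to receptors. The share of IgG reads there is not given. The interval of the receptor starts holds the 6.36%. Receptor starts that could not be placed were not counted. Over 16 other runs of receptor genes on the autosomes, 26 of 355 placed starts lay under a female island (7.32%, interval 4.84% to 10.6%), where 11.7% of the bases were covered and 11.3% of the distinct IgG reads fell. This comparison of starts with bases was chosen after the values were seen. Of the 48 female islands, 2 overlapped an H3K27me3 island, where H3K27me3 covered 1.93% of the cluster in males and 0.711% in females. Whether this overlap differs from random placement was not tested.

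Those 16 runs give the cluster a closer comparison than its own chromosome does. A run was defined as at least 10 placed receptor starts with no gap above 500 kb, limits set after the starts had been placed, and by this definition the cluster extends to 4.93 Mb with 135 starts. Low coverage by active marks was shared by most of these runs. H3K27ac covered 0.160% of this run in males, against a median of 0.197% in the others, and 0.114% in females, against a median of 0.202%, and 9 of the 16 others were above it in each sex. For H3K4me1, H3K4me3 and H3K36me3, 8 to 11 of the 16 were above it. The H3K9me3 share was 1.78% in males in this run, against a median of 3.13% (0% to 18.9%) in the others. In females it was 10.4%, against a median of 11.4% (0.768% to 40.8%). The male share was lower than the female share in 15 of the other 16 runs, and the run on chromosome 19 was the exception, with 2.13% in males and 0.768% in females. H3K27me3 covered 4.32% of this run in males, against a median of 9.09% in the others, and 3.45% in females, against a median of 4.66%. Of the other runs, 12 were above it in males and 9 in females.

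**Figure D4:**
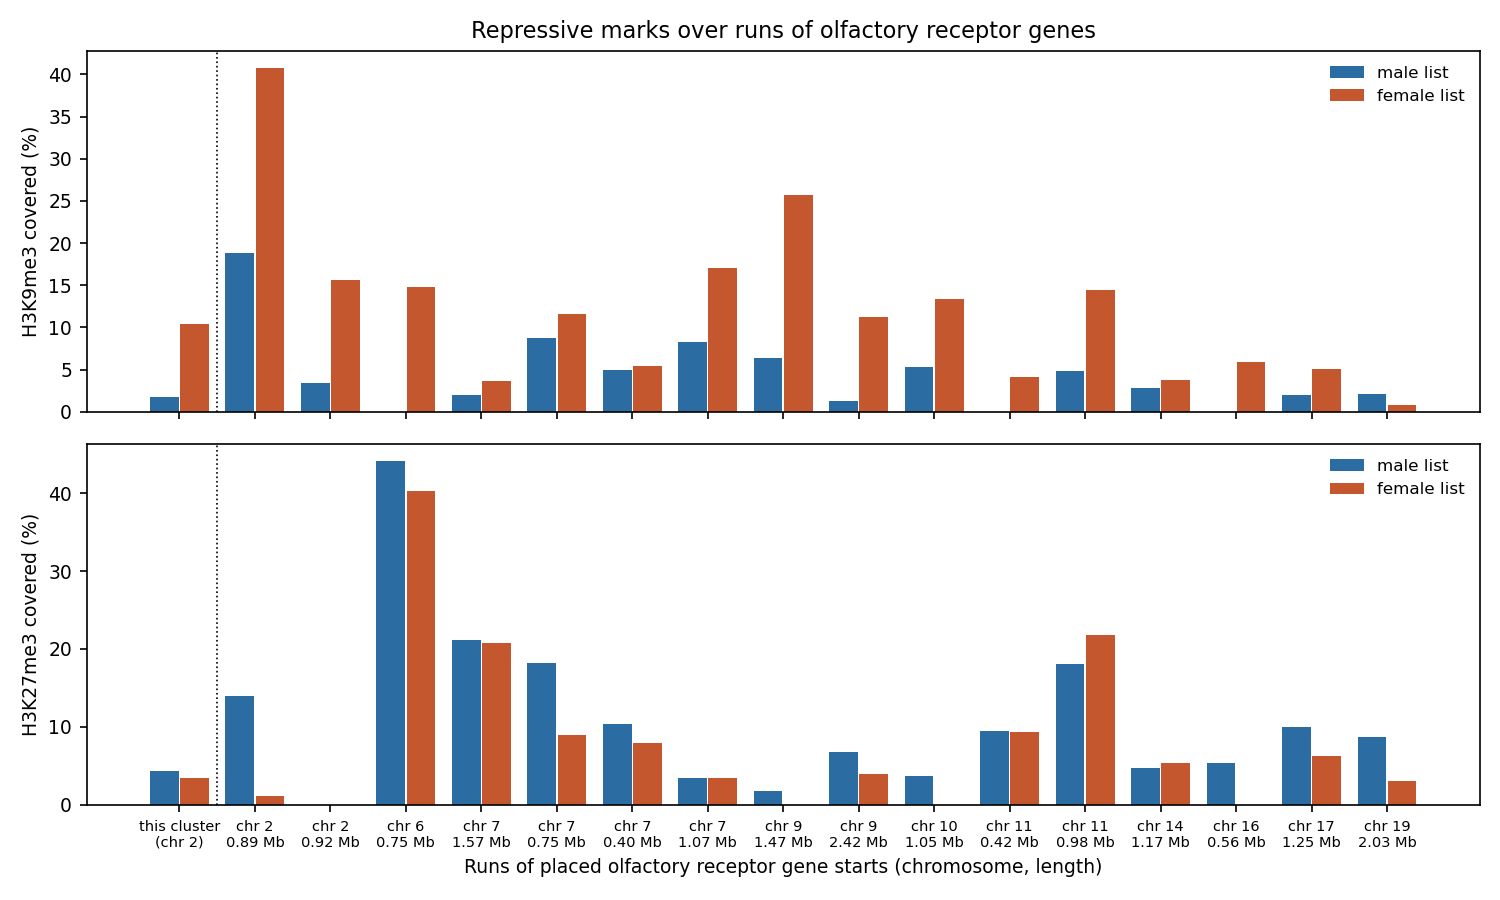
Percentage of bases covered by H3K9me3 (top) and H3K27me3 (bottom) in 17 runs of olfactory receptor gene starts, with the run that holds the cluster at the far left and the others by chromosome with their length in Mb, blue bars for male lists and orange bars for female lists. The male H3K9me3 bar is below the female bar in the cluster (1.78% in males, 10.4% in females) and in 15 of the other 16 runs.

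Reads could be mapped in the cluster about as often as elsewhere. The IgG library, made from a male and of an earlier record, had 5.22 reads per kb in the cluster (5.15 to 5.28) and 4.95 on the rest of chromosome 2, a ratio of 1.055. Of the 1-kb bins of the cluster 83.4% held at least 1 read, against 86.4% on the rest. How the aligner treated reads that match several near-identical receptor copies is not given in the labels, so islands over such copies are uncertain. Base composition differed more. The IgG reads of the cluster had 33.3% G and C, against 39.6% on the rest, and all 38 windows were richer, the lowest at 34.9%. Within the cluster, reads inside female H3K9me3 islands had 36.4% G and C and reads elsewhere had 32.9%. IgG density under the female islands was 0.236 to 1.70 times that of the rest of the chromosome, with a median of 0.852, so most stood on fewer control reads than the cluster as a whole. The part of base composition in any of these results was not tested.

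**Figure D5:**
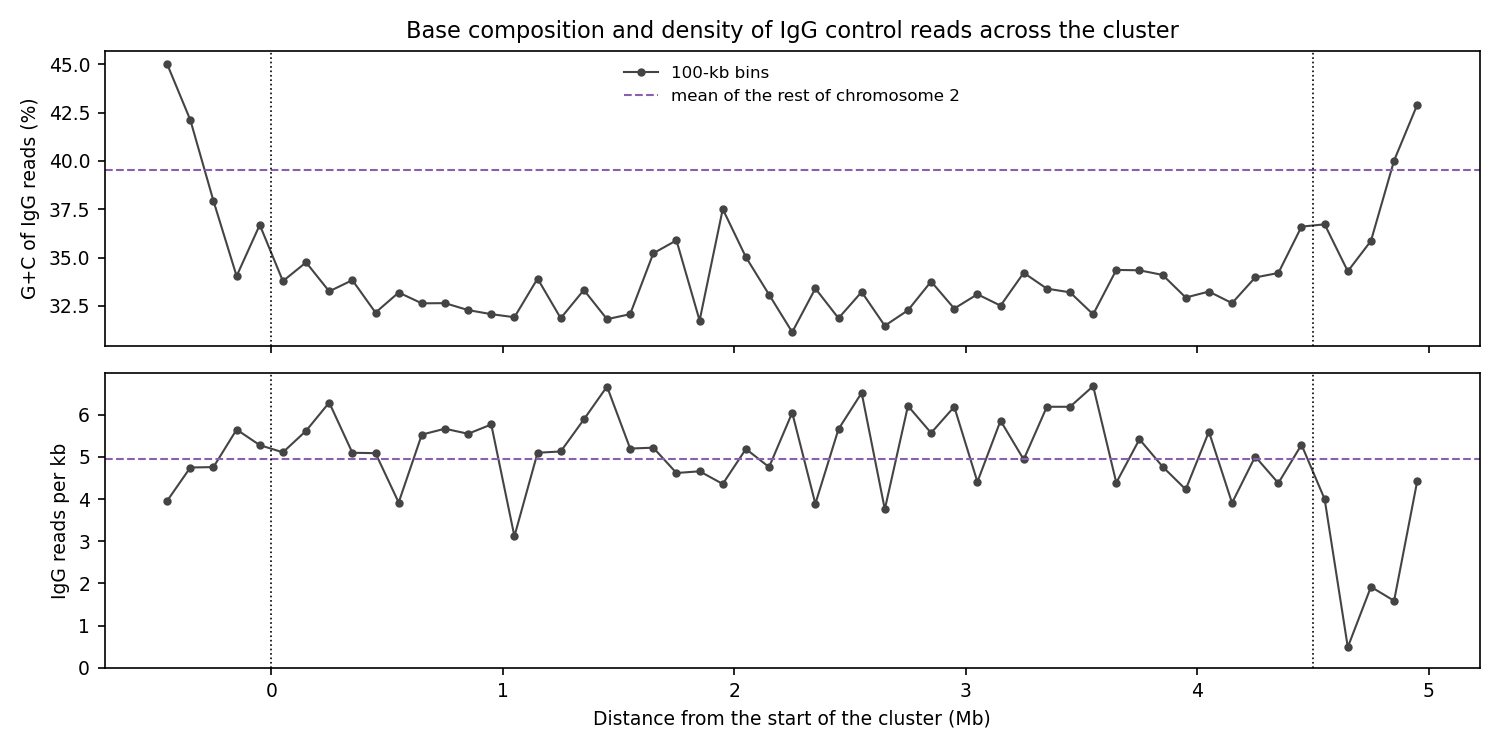
G and C content of IgG control reads (top, %) and their density (bottom, reads per kb) in 100-kb bins by distance from the start of the cluster (x axis, Mb), with dotted lines at its borders and a dashed line at the mean of the rest of chromosome 2. Inside the cluster bins have 31.1% to 37.5% G and C, below the 39.6% of the rest, and 3.12 to 6.68 reads per kb, while bins outside the borders have 34.0% to 45.0% G and C and 0.49 to 5.65 reads per kb.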

How the data were processed

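CD-1 mouse livers of both sexes were profiled by ChIP-seq for 6 histone H3 marks in 34 libraries, with 4 IgG libraries, of which 1 had aligned reads and the other 3 were not analysed here. The submitters' processing notes name Bowtie, build mm9 and the island caller SICER (version 1.1). H3K27ac, H3K4me1 and H3K4me3 peaks carry MACS column headings, with no version given in the labels or headers used here. The SICER window and gap sizes were, per the labels, 200 and 800 bp for H3K36me3 and 400 and 2400 bp for the 2 other island marks. Per the file headers, the deposited lists give tag or read counts per peak, a score (-10 log10 of the p-value in MACS lists), a fold ratio over background or control, a p-value and FDR percent where given, and the authors' log2 ratio of male over female with its p-value and call. Part of the H3K27ac tags and scores were deposited with 3 significant digits, so ranks there are approximate. All 12 lists were the same in every library of a mark and sex and were used as pooled lists. Library depth is unknown from the lists; the IgG library had 10828699 autosomal reads of 35 bases. Sex chromosomes were not analysed here.

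Covered shares were computed after merging peaks, cut at the cluster borders, over the span between the first and last IgG read on chromosome 2 (178.7 Mb), with Python 3.11.15, numpy 2.4.6, pandas 2.3.3, scipy 1.17.1 and matplotlib 3.10.9, and the procedure was tested on simulated data. A partner is a peak of the other sex's list sharing at least 1 base. Scores rank MACS peaks and reads over control reads rank islands. A start was placed where at least 25 bases of an IgG read matched a RefSeq (GRCm38.p6) promoter window exactly; 1389 of 2847 windows of chromosome 2 were placed, with 1 to 7 reads behind each in the cluster, and no coordinates were converted between builds. A gene was counted by its 300-base window, or, beside shares of bases, by the base of its start. The other genes of chromosome 2 were counted by window throughout. Peaks were named in the text if their list had at most 10 in the cluster; otherwise the 5 best by score, the 3 widest and every called one were named. The members, the gene lists and these choices were made with earlier results of these data known. Comparisons were descriptive, with the alternatives of the closing section.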

Additional observations from a re-analysis of the deposited data

How the results depend on the processing

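The lists are pooled, so no replicate could be left out, depth per library is unknown, and nothing here measures variation between animals. No paired analysis was possible because the deposited lists are pooled over libraries and hold no value per library. The difference in covered share (cluster minus rest of chromosome 2, in percentage points) kept its sign under every alternative run for all 12 lists, and for female H3K9me3 it stayed between 0.030 and 1.65 around the reported 0.788. With all autosomes as the other side, it was -5.91 and -6.99 for H3K4me1 (male, then female, here and below), -1.33 and -1.30 for H3K4me3, -4.44 for H3K27ac in females, -12.7 and -13.1 for H3K36me3, -21.5 and -23.3 for H3K27me3 and -5.76 for H3K9me3 in males. Over 1-kb bins with IgG reads it was -6.78 and -8.03, -1.57 and -1.52, -5.56 and -5.02, -16.0 and -16.6, and -28.4 and -31.9 for H3K4me1, H3K4me3, H3K27ac, H3K36me3 and H3K27me3. With the better-scoring 50% of each list it was -4.44 and -5.52, -0.957 and -0.969, -3.71 and -3.36, -10.4 and -9.97, and -15.9 and -18.2 for the same marks, and -2.61 for H3K9me3 in males. Borders moved 100 kb outwards gave -24.7 and -28.4 for H3K27me3, and borders moved inwards gave -30.7 for it in females. With the longer list cut to the shorter, it was -7.17 for H3K4me1 in females, -13.0 for H3K36me3 in males and -26.0 for H3K27me3 in males. In the better-scoring 50%, members fell to 1 and 1 of 4 and 3 for H3K4me1, 0 and 0 of 1 and 4 for H3K4me3, 2 of 4 for H3K27ac in males, 0 of 1 for H3K36me3 in males, 0 and 0 of 6 and 2 for H3K27me3 and 23 of 48 for H3K9me3 in females. With lists cut to equal length, members without a partner were 0 for H3K4me3 in females and 0 for H3K36me3 in males because no member was left there (4 of 4 and 1 of 1 lacked one in full lists), 0 of the 2 left for H3K27ac in males (1 of 4 in full), 1 of 3 for H3K27ac in females (0 of 3 in full) and 26 of the 31 left for H3K9me3 in females (43 of 48 in full); where a partner had to cover 50% of the peak, 3 male H3K9me3 islands lacked one, against 1. Centred on the list's median, the members' median log2 was 1.01 against 1.09 for H3K4me3 in males, 0.49 against 0.54 for H3K36me3 in males and -0.10 against -0.40 for H3K9me3 in females, and it changed sign for H3K27me3 in females (0.025 against -0.010) and for H3K9me3 in males (-0.21 against 0.063); the subtraction of the list's median makes these moves. With 1 IgG read per position and strand, IgG density in the cluster was 1.13 times that of the rest, against 1.055. The causes of the other moves were not tested.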

Other observations

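Among the other receptor runs, the run on chromosome 2 between 36232299 and 37122473 had the highest H3K9me3 share, 18.9% in males and 40.8% in females, and no peak of an active mark in either sex. The run on chromosome 6 between 42437214 and 43185611 had the highest H3K27me3 share, 44.1% in males and 40.3% in females, with no H3K9me3 in males and 14.8% in females. The run on chromosome 11 between 48927260 and 49348691 had the highest H3K27ac share, 10.2% in males and 10.04% in females. Receptor promoter windows of the cluster held TATAAA in 57.5% and TAATTA in 24.7%, against 37.4% and 17.3% of the 768 receptor windows elsewhere on the autosomes. These runs and windows were singled out after their values were seen.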
